A study of Mus musculus with 36 samples.

Results

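Transcripts of 8 genes that macrophages use to take up debris, to sense microbial sugars, to make oxygen radicals or to respond to their growth factor were examined in 36 mouse pancreatic tumours. The genes were Cd68, Mrc1, Cd163, Msr1, Csf1, Csf1r, Clec7a and Cybb. They were chosen by name, all 8 were on the panel of 750 endogenous genes, and all 8 were among the 683 genes that passed the filter on low counts. The nCounter assay hybridises barcoded probes to RNA and counts the barcodes without amplification. Values below are scaled counts, that is, raw counts divided by a lane factor set from the geometric mean of the housekeeping genes, and levels are not compared between genes because probes differ in efficiency.

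The tumours came from WT C57BL/6 mice that received orthotopic implants of KPfC BMF-A3 cells, a single mouse pancreatic cancer line. Treatment began on day 10 and every mouse was killed on day 35. TP-0903, which inhibits Axl, a receptor kinase, was dosed at 25 mg/kg by daily gavage. Gemcitabine, a nucleoside analogue used as chemotherapy, was injected 3 times a week at 25 mg/kg, and the PD1-blocking antibody RMP14-1 was injected 2 times a week at 5 mg/kg. The arms were TP-0903+Gemcitabine+anti-PD1 (5 tumours), Gemcitabine+anti-PD1 (4), TP-0903+Gemcitabine (5), Gemcitabine (4), TP-0903+anti-PD1 (4), Anti-PD1 (4), TP-0903 (4) and Vehicle (6). Each agent was thus present or absent on 4 backgrounds of the other agents.

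Macrophages in a tumour depend on signalling through Csf1r, the receptor tyrosine kinase that binds the growth factor encoded by Csf1. Mrc1, Cd163 and Msr1 encode uptake receptors that are commonly read as marks of an alternatively activated or tissue-resident state, whereas Clec7a (dectin-1) senses beta-glucans and Cybb encodes the catalytic subunit of the phagocyte NADPH oxidase. Axl belongs to a receptor family with which macrophages recognise dying cells, and macrophages are abundant in pancreatic cancer.

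The 250 bases before the transcription start are shown for the genes whose values differed most with gemcitabine, Clec7a and Cd163, and for the gene among the 8 that each followed most closely across tumours, Cybb for Clec7a and Mrc1 for Cd163. Sequences are from the RefSeq promoter table of build GRCm38.p6, 5′ to 3′ on the strand of the gene. Capitals mark GAGGAA or its reverse complement TTCCTC, the core motif of the myeloid transcription factor PU.1, searched on both strands.
Clec7a: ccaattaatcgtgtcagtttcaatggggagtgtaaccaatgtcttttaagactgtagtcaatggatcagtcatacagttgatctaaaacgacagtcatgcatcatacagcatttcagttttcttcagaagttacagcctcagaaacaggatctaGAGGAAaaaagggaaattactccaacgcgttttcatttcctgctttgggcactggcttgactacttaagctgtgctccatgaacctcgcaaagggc
Cybb: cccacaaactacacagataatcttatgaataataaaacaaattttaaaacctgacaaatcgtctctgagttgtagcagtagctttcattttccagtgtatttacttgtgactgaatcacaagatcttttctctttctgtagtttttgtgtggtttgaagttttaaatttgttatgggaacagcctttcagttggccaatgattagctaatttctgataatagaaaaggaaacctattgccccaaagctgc
Cd163: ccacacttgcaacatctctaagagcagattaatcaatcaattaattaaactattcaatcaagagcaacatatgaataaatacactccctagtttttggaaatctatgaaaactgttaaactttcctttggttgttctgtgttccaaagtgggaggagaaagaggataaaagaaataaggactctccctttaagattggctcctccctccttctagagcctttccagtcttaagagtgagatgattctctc
Mrc1: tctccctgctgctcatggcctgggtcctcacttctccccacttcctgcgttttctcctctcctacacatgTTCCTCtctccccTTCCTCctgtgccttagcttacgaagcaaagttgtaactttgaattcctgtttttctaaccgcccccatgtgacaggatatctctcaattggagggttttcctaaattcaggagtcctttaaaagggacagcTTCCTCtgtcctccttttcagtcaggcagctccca
These windows lie at chr6:129472780-129473029 on the minus strand for Clec7a, chrX:9469325-9469574 on the minus strand for Cybb, chr6:124304401-124304650 on the plus strand for Cd163 and chr2:14229164-14229413 on the plus strand for Mrc1. The Clec7a window held 1 match, whose first base lay 96 bases before the start. The Mrc1 window held 3 matches, at 35, 167 and 180 bases before the start, and the Cybb and Cd163 windows held 0. The motif was present in 23.3% of the 32851 promoters of the same length, so these matches describe the windows only. A promoter was in the table for 6 of the 8 genes.

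The libraries carried macrophage RNA in every arm: all 12 genes of a macrophage marker list were above background in at least 1 tumour of each arm. Their summed scaled count ran from 1373 to 3873. That list includes Cd68, Csf1r, Mrc1, Cd163 and Msr1 of the genes examined here. Total counts per tumour lay between 115973 and 552876. Most genes of the set were above the lane threshold in all 36 tumours. Cd163 exceeded it in 33, not in Gemcitabine replicates 1 and 4 or TP-0903+Gemcitabine+anti-PD1 replicate 2, and Msr1 in 35, not in Vehicle replicate 3. That Vehicle tumour also held lung transcripts, with a summed lung marker count of 16186 against at most 3535 in any other tumour, and TP-0903 replicate 3 held liver transcripts, with a summed hepatocyte marker count of 180797 against at most 4292 elsewhere. Several values that these tumours move are given with and without both. The lanes filled 3 cartridges. The first held the 6 Vehicle tumours, the 4 TP-0903 tumours and 2 of the Gemcitabine tumours. The second held the other 2 Gemcitabine tumours, all Anti-PD1 and TP-0903+Gemcitabine tumours and 1 TP-0903+anti-PD1 tumour. The third held the remaining 3 TP-0903+anti-PD1 tumours, all Gemcitabine+anti-PD1 tumours and every tumour given the triple combination. Arm and cartridge were therefore largely confounded.

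The agents were set apart by which of the 8 genes stood furthest from equal levels. In the edgeR fit, averaged over the 4 backgrounds, Clec7a was 1.62 times as high with gemcitabine as without it. Cd163 was 0.430 times as high, and the other 6 genes lay between 0.845 and 1.23 times. These multiples, and those of the other agents, come from average log2 folds and are not ratios of mean scaled counts. With TP-0903 the highest averages were those of Mrc1 (1.41 times), Cd163 (1.40 times) and Msr1 (1.33 times), and with anti-PD1 that of Cybb (1.23 times). In 22 comparisons, none of the 176 tests of these genes reached an adjusted p under 0.05 in edgeR's quasi-likelihood test. The Benjamini-Hochberg adjustment ran over all 683 genes. The share called over all genes ran from 0% in the TP-0903 average to 0.899% in the 7 arms against Vehicle, pooled. An unadjusted p under 0.05 was reached by 18 of the 176. Over all genes that share ran from 5.66% in the 9 additions of an agent to another regimen, pooled, to 14.3% in the gemcitabine average. These are bulk samples, in which fewer cells of a type and less RNA per cell cannot be told apart.

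Gemcitabine was the agent with which a pair of these genes stood furthest apart. Clec7a, the beta-glucan receptor, counted 95.8, 176, 109 and 106 in Gemcitabine tumours, against a lowest of 50.2, a median of 58.6 and a highest of 87.4 in Vehicle tumours. It counted 150.0, 113, 184 and 109.6 in Gemcitabine+anti-PD1 tumours, against 47.2, 67.0, 53.2 and 165 in Anti-PD1 tumours. In both settings every tumour given gemcitabine lay above the median of its partner arm, and the Gemcitabine and Vehicle ranges did not overlap. The Gemcitabine+anti-PD1 and Anti-PD1 ranges overlapped through Anti-PD1 replicate 4, and the ranges also overlapped on both backgrounds with TP-0903. Clec7a counted 104, 245, 70.2, 124 and 82.1 in TP-0903+Gemcitabine tumours, against 63.3, 93.9, 76.8 and 108 in TP-0903 tumours. It counted 96.6, 66.0, 74.6, 128 and 155 in TP-0903+Gemcitabine+anti-PD1 tumours, against 86.2, 63.4, 50.5 and 91.7 in TP-0903+anti-PD1 tumours.

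Over all arms Clec7a averaged 122 ± 45.9 with gemcitabine and 74.1 ± 28.7 without it (SD, n = 18 each). All 18 tumours given gemcitabine lay above the median of those without it, 63.4. The average log2 fold over the 4 backgrounds was 0.70 ± 0.17 (SE; edgeR, adjusted p = 0.0613), the fold was positive on 4 of 4 backgrounds, and it ranked 4 of 683 genes by p. By the adjusted p the effect did not pass. It passed without Anti-PD1 replicate 4 (log2 fold 0.84, adjusted p = 0.00608), which held the only Clec7a count above 108 among tumours not given gemcitabine. It also passed without Vehicle replicate 3 (0.0431), TP-0903 replicate 1 (0.0467), 2 (0.0446) or 4 (0.0360), or TP-0903+Gemcitabine replicate 3 (0.0334), each value an adjusted p. With any other tumour left out it did not pass, and the highest adjusted p was 0.141. Without TP-0903 replicate 1 the log2 fold was smaller, 0.67 ± 0.18, while the genes called over the whole panel rose from 1 to 13. Without the lung- and liver-containing tumours the log2 fold was 0.72 ± 0.18, with an adjusted p of 0.0481.

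Cd163, the receptor that clears haptoglobin-bound haemoglobin, went the other way in its mean. It counted 18.3, 35.0, 24.6 and 9.29 in Gemcitabine tumours, against a lowest of 18.2, a median of 30.6 and a highest of 176 in Vehicle tumours. It counted 30.9, 20.03, 55.6 and 23.3 in Gemcitabine+anti-PD1 tumours, against 103, 23.4, 129 and 116 in Anti-PD1 tumours. Vehicle tumours were split for this gene, with 4 at 40.2 or less and the other 2 at 89.0 and 176. It counted 40.1, 55.1, 105, 84.4 and 31.9 in TP-0903+Gemcitabine tumours, against 62.6, 25.2, 155 and 94.7 in TP-0903 tumours. It counted 27.5, 13.2, 53.3, 23.2 and 45.0 in TP-0903+Gemcitabine+anti-PD1 tumours, against 59.3, 19.9, 117 and 165 in TP-0903+anti-PD1 tumours. The ranges of each pair of arms overlapped.

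Cd163 averaged 38.7 ± 24.9 with gemcitabine and 79.7 ± 54.9 without it (SD, n = 18 each). Only 2 of 18 tumours given gemcitabine exceeded the median without it, 75.8, and both were TP-0903+Gemcitabine tumours. The average log2 fold was -1.22 ± 0.33 (SE; edgeR, adjusted p = 0.0835) and was negative on 4 of 4 backgrounds, from -1.51 to -0.41, the smallest where TP-0903 was the background. The adjusted p dropped below 0.05 without TP-0903 replicate 1 (0.0486) or 2 (0.0446), Anti-PD1 replicate 2 (0.0490) or TP-0903+Gemcitabine replicate 3 (0.0438). With any other tumour left out it did not, and the highest adjusted p was 0.219. Without the lung- and liver-containing tumours the log2 fold was -1.13 ± 0.33 (adjusted p = 0.0764). Against Vehicle, Cd163 then had -0.08 ± 0.68 in TP-0903 and -0.03 ± 0.59 in TP-0903+Gemcitabine tumours. The gemcitabine fold on TP-0903 was thus no longer negative.

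**Figure D1:**
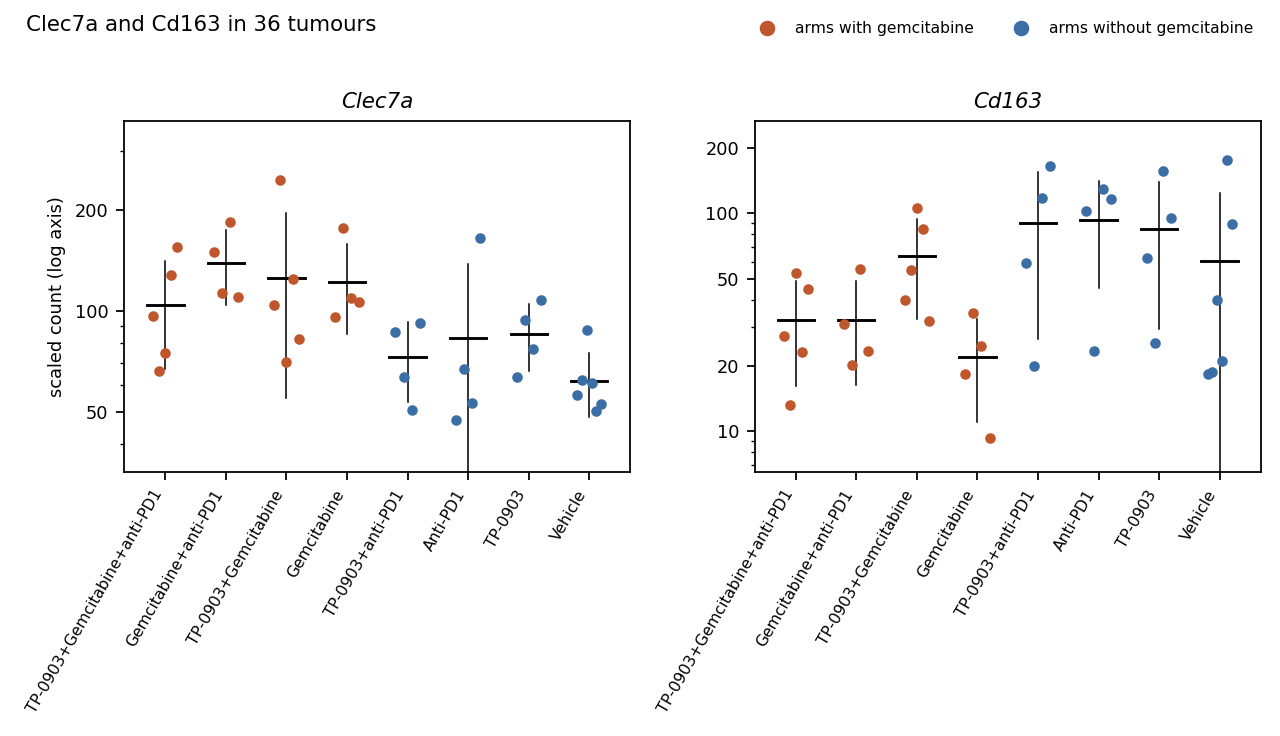
Scaled counts of Clec7a and Cd163 on log axes in the 8 arms, 1 point a tumour, with the arm mean as a horizontal line and the SD as a vertical bar cut at the lower edge of the axis where it runs beyond it; orange arms had gemcitabine and blue arms did not. Clec7a points of the Gemcitabine arm, at 95.8 or more, lie above all Vehicle points, at 87.4 or less, while Cd163 points of the gemcitabine arms crowd the lower part of the panel with overlap.

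In the gemcitabine average, 0 of the 8 genes were called at an adjusted p under 0.05, where 0.146% of all tested genes were, and 2 of 8 had an unadjusted p under 0.05, where 14.3% of all genes did. DESeq2 called 2 of them, Clec7a (adjusted p = 0.00869) and Cd163 (adjusted p = 0.0131), and limma on log2 values called 0, with 2 at an unadjusted p under 0.05. Cybb had a log2 fold of 0.29 ± 0.15 (adjusted p = 0.368), Mrc1 -0.24 ± 0.23 (0.716), Csf1 -0.14 ± 0.17 (0.805), Cd68 0.14 ± 0.14 (0.757), Msr1 0.05 ± 0.18 (0.926) and Csf1r 0.04 ± 0.19 (0.944), all from edgeR with the adjusted p in brackets. With the cartridge fitted as a block the log2 folds were 0.93 ± 0.32 for Clec7a and -1.20 ± 0.64 for Cd163, with adjusted p of 0.393 and 0.702. Within the first cartridge the mean log2 level of Clec7a differed by 1.09 between 2 Gemcitabine and 6 Vehicle tumours, and that of Cd163 by -0.67. Within the third cartridge, between 5 TP-0903+Gemcitabine+anti-PD1 and 3 TP-0903+anti-PD1 tumours, the differences were 0.57 for Clec7a and -1.31 for Cd163.

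The markers of other cells were read in the same average. All 7 B cell markers on the panel had a positive average log2 fold, 6 of them with an unadjusted p under 0.05 and 0 with an adjusted p under 0.05, with a median of 0.72. Their summed scaled count ran from 62.1 to 571 with gemcitabine and from 53.7 to 386 without it, and all 7 were above background in at least 1 tumour of each group. Of 7 neutrophil markers on the panel 5 had positive log2 folds (median 0.51), among them Mpo (1.99 ± 0.56) and Elane (1.59 ± 0.50), which encode primary granule enzymes, and the summed count ran from 257 to 7280 with gemcitabine and from 250.1 to 21707 without it. The hepatocyte list had 0 of 10 positive log2 folds (median -1.93), with summed counts from 146 to 3645 with gemcitabine and from 163 to 180797 without it. Without the lung- and liver-containing tumours the medians were 0.94, 0.54 and -0.26 for the B cell, neutrophil and hepatocyte lists, and 3 B cell genes (Cd79b, Cr2 and Ms4a1, named after their values were seen) and Mpo then had an edgeR adjusted p under 0.05. The part of these cells in the Clec7a and Cd163 values was not tested.

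TP-0903 gave its highest averages for uptake receptors. The margin was narrow without the lung- and liver-containing tumours, where the average log2 fold was 0.32 ± 0.16 for Msr1 and 0.30 ± 0.16 for Csf1. Mrc1, the mannose receptor, counted 422, 192, 344 and 667 in TP-0903 tumours, against a lowest of 158, a median of 202 and a highest of 640.0 in Vehicle tumours. It counted 267, 427, 655, 379 and 331 in TP-0903+Gemcitabine tumours, against 189, 255, 309.9 and 146 in Gemcitabine tumours. The arms overlapped in both pairs, and 4 of 5 TP-0903+Gemcitabine tumours exceeded all 4 Gemcitabine tumours. Mrc1 counted 459, 145, 593 and 607 in TP-0903+anti-PD1 tumours, against 349.9, 156, 368 and 362 in Anti-PD1 tumours. It counted 262, 223, 390, 274 and 480.4 in TP-0903+Gemcitabine+anti-PD1 tumours, against 238, 135, 598 and 193 in Gemcitabine+anti-PD1 tumours. TP-0903+anti-PD1 replicate 2, at 145, was the lowest of the 18 tumours given TP-0903.

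Mrc1 averaged 396 ± 159 with TP-0903 and 285 ± 153 without it (SD, n = 18 each), and 16 of 18 tumours given TP-0903 exceeded the median without it, 222. The average log2 fold was 0.50 ± 0.23 (SE; edgeR, adjusted p = 0.393), positive on 4 of 4 backgrounds. Msr1, the class A scavenger receptor for modified lipoproteins, averaged 123 ± 34.7 with TP-0903 and 91.0 ± 41.2 without it, and 16 of 18 tumours given TP-0903 exceeded the median without it, 86.5. Its average log2 fold was 0.41 ± 0.18 (SE; edgeR, adjusted p = 0.366), and 0.32 ± 0.16 without the lung- and liver-containing tumours (adjusted p = 0.536). Msr1 in TP-0903 tumours alone, at 106, 82.8, 174 and 162, was set against a lowest of 18.1, a median of 79.7 and a highest of 90.7 in Vehicle tumours. The lowest Vehicle count was that of the lung-containing replicate 3, and the log2 fold was 0.89 ± 0.35 with both tumours of mixed tissue and 0.53 ± 0.33 without them.

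For the TP-0903 average, 0 of 8 genes were called at an adjusted p under 0.05, where 0% of all genes were, and 2 of 8 had an unadjusted p under 0.05, where 11.4% of all genes did. DESeq2 and limma also called 0, each with 2 at an unadjusted p under 0.05. Cd163 had an average log2 fold of 0.49 ± 0.33 (edgeR adjusted p = 0.644), or 0.35 ± 0.33 without the lung- and liver-containing tumours (adjusted p = 0.832). It was positive on 2 of 4 backgrounds, and its largest single fold came where TP-0903 was added to gemcitabine, 1.55 ± 0.68 (adjusted p = 0.615). In TP-0903 against Vehicle tumours the Cd163 log2 fold was 0.47 ± 0.61, and -0.08 ± 0.68 without the lung- and liver-containing tumours. Without those tumours the Cd163 fold with TP-0903 stayed positive only on Gemcitabine. Csf1 had 0.22 ± 0.17, Cd68 0.14 ± 0.14, Csf1r 0.06 ± 0.19, Cybb 0.04 ± 0.15 and Clec7a -0.02 ± 0.17 as average log2 folds, with adjusted p from 0.712 to 0.990. The average was positive for 7 of the 8 genes with housekeeping scaling, with a median of 0.18 against 0.03 over all genes, and for 4 of 8 with positive-control scaling, with a median of -0.02 against -0.20 over all genes. Neutrophil markers also had mostly positive log2 folds, with 6 of 7 positive, 5 of them at an unadjusted p under 0.05, and a median of 1.20, and their summed count ran from 257 to 21707 with TP-0903 and from 250.1 to 5280 without it. All 10 hepatocyte markers had positive log2 folds too (median 1.57), with summed counts from 186 to 180797 with TP-0903 and from 146 to 4292 without it. With the lung- and liver-containing tumours left out, 7 of 10 hepatocyte markers (median 0.07) and 7 of 7 neutrophil markers (median 1.26) were positive. The part of these cells in the Mrc1 and Msr1 values was not tested. Within the cartridges, TP-0903 against Vehicle (4 and 6 tumours), TP-0903+Gemcitabine against Gemcitabine (5 and 2) and the triple combination against Gemcitabine+anti-PD1 (5 and 4) differed in mean log2 level by 0.51, 0.88 and 0.34 for Mrc1, and by 0.99, 0.42 and 0.06 for Msr1.

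Anti-PD1 had the smallest range of averages, from -0.07 for Csf1r to 0.30 for Cybb on the log2 scale. Cybb, the oxidase subunit, counted 171, 106, 236 and 160.4 in TP-0903+anti-PD1 tumours, against 100.4, 130.2, 150 and 121 in TP-0903 tumours, and 145, 214, 259 and 161 in Gemcitabine+anti-PD1 tumours, against 183, 147, 168 and 116 in Gemcitabine tumours. It counted 86.1, 96.1, 105 and 212 in Anti-PD1 tumours, against a lowest of 78.3, a median of 99.7 and a highest of 170 in Vehicle tumours. With TP-0903+Gemcitabine as the background it counted 145, 104, 149, 168 and 253 with anti-PD1, against 136, 230.4, 92.2, 115 and 104 without it. Each of these pairs overlapped, and 12 of 17 tumours given anti-PD1 lay above the median of those without it, 121. The average log2 fold of Cybb was 0.30 ± 0.15 (edgeR, adjusted p = 0.841), positive on 4 of 4 backgrounds. The other averages were 0.16 ± 0.17 for Csf1, 0.14 ± 0.18 for Msr1, 0.11 ± 0.14 for Cd68, 0.09 ± 0.33 for Cd163, 0.05 ± 0.23 for Mrc1, 0.03 ± 0.17 for Clec7a and -0.07 ± 0.19 for Csf1r. In edgeR 0 of 8 genes were called, where 0% of all genes were, and 0 of 8 had an unadjusted p under 0.05, where 5.71% of all genes did. DESeq2 called 0, with 1 at an unadjusted p under 0.05, and limma called 0, with 0.

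**Figure D2:**
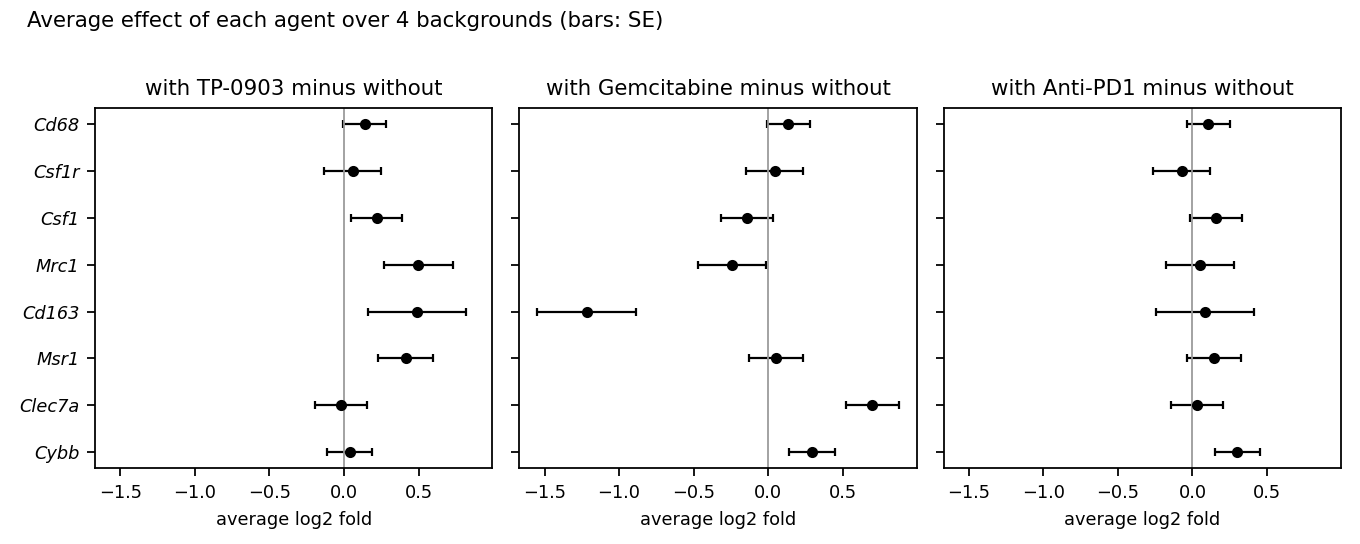
Average log2 fold of each of the 8 genes with an agent minus without it over 4 backgrounds, with the SE as a bar, in 1 panel for each agent. Clec7a at 0.70 and Cd163 at -1.22 with gemcitabine are the points farthest from 0.

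Neither gene of the growth factor pair was called in any arm against Vehicle in edgeR. The intervals were wide, so equal levels were not shown. In TP-0903 tumours Csf1r had a log2 fold of 0.52, with a 95% interval from -0.19 to 1.23. There Csf1 had 0.21 ± 0.33, and 0.56 ± 0.34 without the lung- and liver-containing tumours. Against Vehicle the log2 fold was positive in 5 of 7 treated arms for Csf1r and in 4 of 7 for Csf1. Csf1, which tumour and stromal cells as well as macrophages can make, had arm means from 110.4 ± 24.2 in Gemcitabine (n = 4) to 187 ± 67.9 in TP-0903+anti-PD1 tumours (SD, n = 4), against 135 ± 44.0 in Vehicle tumours (n = 6). Csf1r had arm means from 361 ± 124 in TP-0903+anti-PD1 tumours (n = 4) to 554 ± 182 in TP-0903 tumours (n = 4), against 386 ± 94.7 in Vehicle tumours. Cd68, a glycoprotein of lysosomes and a general macrophage marker, had the narrowest spread of arm means, from 219 ± 71.7 in Anti-PD1 (n = 4) to 251 ± 84.2 in Gemcitabine+anti-PD1 (n = 4), with 179 ± 44.4 in Vehicle tumours, so that its highest arm mean was 1.40 times its lowest. The same ratio was 1.54 for Csf1r, 1.69 for Csf1, 1.74 for Cybb, 1.90 for Msr1, 2.01 for Mrc1, 2.26 for Clec7a and 4.26 for Cd163.

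When arms were ordered by their mean, Clec7a ran from Gemcitabine+anti-PD1 (139 ± 35.1) through TP-0903+Gemcitabine, then Gemcitabine, then TP-0903+Gemcitabine+anti-PD1, then TP-0903, then Anti-PD1, then TP-0903+anti-PD1 down to Vehicle (61.5 ± 13.5). All 4 gemcitabine arms thus stood above the other 4. Cd163 ran from Anti-PD1 (92.8 ± 47.5) through TP-0903+anti-PD1, then TP-0903, then TP-0903+Gemcitabine, then Vehicle, then Gemcitabine+anti-PD1, then TP-0903+Gemcitabine+anti-PD1 down to Gemcitabine (21.8 ± 10.8). Mrc1 ran from TP-0903+anti-PD1 (451 ± 215) through TP-0903+Gemcitabine, then TP-0903, then TP-0903+Gemcitabine+anti-PD1, then Anti-PD1, then Vehicle, then Gemcitabine+anti-PD1 down to Gemcitabine (225 ± 72.3), with all 4 TP-0903 arms above the other 4. Msr1 ran from TP-0903+Gemcitabine (133 ± 31.4) through TP-0903, then TP-0903+anti-PD1, then Gemcitabine+anti-PD1, then TP-0903+Gemcitabine+anti-PD1, then Anti-PD1, then Gemcitabine down to Vehicle (70.2 ± 27.4). Cybb ran from Gemcitabine+anti-PD1 (195 ± 51.9) through TP-0903+anti-PD1, then TP-0903+Gemcitabine+anti-PD1, then Gemcitabine, then TP-0903+Gemcitabine, then TP-0903, then Anti-PD1 down to Vehicle (112 ± 35.0). For each of the 8 genes, the ranges of neighbouring arms overlapped throughout its order, in which neighbours have close means by construction. Of all 28 pairs of arms, 5 did not overlap for Clec7a, each a gemcitabine arm above an arm without it. For Msr1 this held for 1 pair, TP-0903+Gemcitabine above Vehicle, and for the other genes 0. The share of such pairs over all tested genes was not computed.

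**Figure D3:**
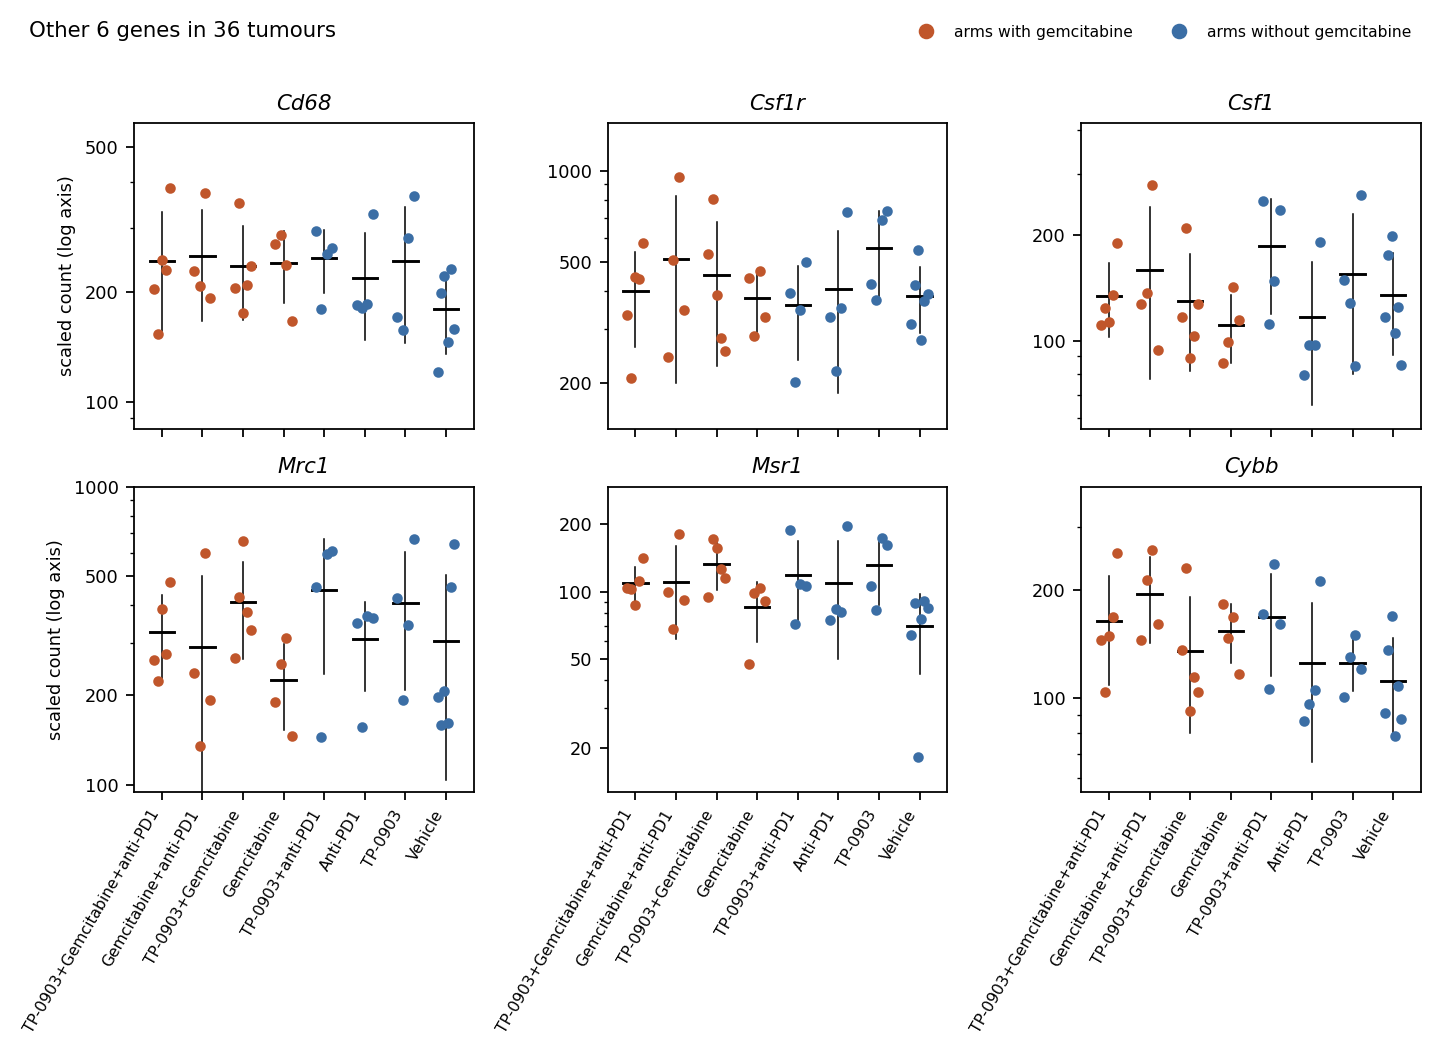
Scaled counts of Cd68, Csf1r, Csf1, Mrc1, Msr1 and Cybb on log axes in the 8 arms, 1 point a tumour, with the arm mean as a horizontal line and the SD as a vertical bar cut at the lower edge of the axis where it runs beyond it. The ranges of neighbouring arms overlap in each panel, and the isolated low Msr1 point at 18.1 is Vehicle replicate 3.

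Against Vehicle, 4 of the 8 genes had a positive log2 fold in all 7 treated arms, which share the same 6 Vehicle tumours. They were Clec7a (0.24 to 1.18), Msr1 (0.28 to 0.92), Cybb (0.16 to 0.80) and Cd68 (0.29 to 0.48). With positive-control scaling, which put the median over all genes at -0.19 instead of -0.02, Clec7a and Msr1 had 7 of 7 positive folds and Cybb and Cd68 had 6 of 7. Over all tested genes, 92 of 683 were positive in all 7 arms with housekeeping scaling and 27 of 683 with positive-control scaling. The other members were mixed, with 5 of 7 positive for Mrc1 and Csf1r and 4 of 7 for Cd163 and Csf1. When the lung- and liver-containing tumours were left out, 205 of 683 genes were positive in all 7 arms, the median over all genes was 0.13, and Csf1r joined the 4 with 7 of 7. Mrc1 then had 4 of 7, Cd163 2 of 7 and Csf1 5 of 7, and Msr1 ran from 0.08 to 0.72. Of the 56 tests 0 were called in edgeR, where 0.899% of all genes were called over these comparisons, and 10 had an unadjusted p under 0.05, where 11.2% of all tests did. DESeq2 called 1 (Clec7a in Gemcitabine+anti-PD1, adjusted p = 0.0498), with 11 at an unadjusted p under 0.05, and limma called 0, with 11.

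Clec7a supplied 4 of those 10, in each arm that held gemcitabine. Its log2 fold against Vehicle was 1.18 ± 0.33 in Gemcitabine+anti-PD1 (adjusted p = 0.120), 1.02 ± 0.31 in TP-0903+Gemcitabine (0.132), 0.98 ± 0.33 in Gemcitabine (0.259) and 0.76 ± 0.31 in TP-0903+Gemcitabine+anti-PD1 tumours (0.314). Msr1 supplied 3, in TP-0903, TP-0903+Gemcitabine (0.92 ± 0.33, adjusted p = 0.199) and TP-0903+anti-PD1 tumours (0.75 ± 0.35, 0.437). Cybb supplied 2, in Gemcitabine+anti-PD1 (0.80 ± 0.29, 0.284) and TP-0903+anti-PD1 tumours (0.59 ± 0.29, 0.458). Cd163 supplied 1, in Gemcitabine tumours (-1.48 ± 0.66, 0.515), where the log2 fold was -0.79 without Vehicle replicate 5, the tumour with the Cd163 count of 176. The smallest p in Anti-PD1 tumours was that of Msr1 (0.63 ± 0.35, adjusted p = 0.872), whose log2 fold was 0.17 without Anti-PD1 replicate 4. Other single tumours also moved these values by over 1.5 times. Clec7a in TP-0903+Gemcitabine tumours was 0.63 without replicate 2, which counted 245. In TP-0903+anti-PD1 tumours Msr1 was 0.43 without replicate 1 and Cybb was 0.38 without replicate 3. Without the lung- and liver-containing tumours, Msr1 was 0.53 ± 0.33 in TP-0903, 0.72 ± 0.29 in TP-0903+Gemcitabine and 0.56 ± 0.31 in TP-0903+anti-PD1 tumours.

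When an agent was added to a regimen that already held another, 0 of 72 tests were called in edgeR, where 0.667% of all were, and 4 had an unadjusted p under 0.05, where 5.66% of all did. DESeq2 called 0, with 5 at an unadjusted p under 0.05, and limma called 0, with 3. The 4 were Cd163 for TP-0903 added to Gemcitabine (1.55 ± 0.68), Cd163 for gemcitabine added to Anti-PD1 (-1.51 ± 0.69) and to TP-0903+anti-PD1 (-1.47 ± 0.66), and Clec7a for gemcitabine added to Anti-PD1 (0.74 ± 0.36), with adjusted p of 0.615, 0.938, 0.998 and 0.938. For gemcitabine added to TP-0903 the smallest p was that of Clec7a (0.55 ± 0.35, adjusted p = 0.634). Adding anti-PD1 gave its smallest p for Csf1r on TP-0903 (-0.62 ± 0.40, adjusted p = 0.710), for Csf1 on Gemcitabine (0.53 ± 0.36, 0.998) and for Cd163 on TP-0903+Gemcitabine (-0.96 ± 0.62, 0.736). TP-0903 gave its smallest p for Csf1 on Anti-PD1 (0.68 ± 0.36, adjusted p = 0.999) and for Clec7a on Gemcitabine+anti-PD1 (-0.41 ± 0.34, 0.997). Several of these moved, up or down, by over 1.5 times with 1 tumour left out. Clec7a was 0.15 for gemcitabine added to TP-0903 without TP-0903+Gemcitabine replicate 2, and 1.32 for gemcitabine added to Anti-PD1 without Anti-PD1 replicate 4 (adjusted p = 0.234). Csf1 was 0.11 for anti-PD1 added to Gemcitabine without Gemcitabine+anti-PD1 replicate 3, and 1.03 for TP-0903 added to Anti-PD1 without Anti-PD1 replicate 4 (adjusted p = 0.493). Clec7a was -0.25 for TP-0903 added to Gemcitabine+anti-PD1 without Gemcitabine+anti-PD1 replicate 3.

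The interactions asked whether an agent's effect differed with and without another agent, averaged over the third. In edgeR 0 of 24 tests were called, where 0.488% of all were, and 0 had an unadjusted p under 0.05, where 6.78% of all did. DESeq2 and limma also called 0, with 0 at an unadjusted p under 0.05 each. The smallest p values were those of Msr1 for TP-0903 and anti-PD1 (-0.71 ± 0.37, adjusted p = 0.441), Cybb for TP-0903 and gemcitabine (-0.51 ± 0.30, 0.893) and Csf1r for gemcitabine and anti-PD1 (0.40 ± 0.38, 0.979), which was 0.62 without Anti-PD1 replicate 4 and 0.16 without Gemcitabine+anti-PD1 replicate 3. For Cd163 the interaction of TP-0903 and gemcitabine was 0.56 ± 0.66, with a 95% interval from -0.72 to 1.85. This averages over backgrounds with and without anti-PD1, and the gemcitabine log2 fold on TP-0903 alone was not tested against those on the other backgrounds.

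Across tumours most pairs of the 8 genes rose together, to unequal degrees. Scaled counts were compared as log2(scaled count + 1) over the 36 tumours, which share the housekeeping factor of their lane. The median r over the 28 pairs was 0.44, against 0.11 over all 232903 pairs of tested genes, of which 90% had an r below 0.50. For Pearson r, 19 of the 28 pairs had an adjusted permutation p under 0.05, a share not computed over all pairs, and 1 had an r below 0. Mrc1 had r = 0.55 with Msr1, 0.50 with Cd68 and 0.46 with Csf1r. Between Cd163 and Cybb r was 0.06, and 0.30 once arm means were removed. Mrc1 and Cd163 were the closest pair (Pearson r = 0.82, Spearman rho = 0.82, adjusted permutation p = 0.00014 for each, the smallest that 100000 resamples over 28 pairs gave). Without the 2 tumours farthest from the median of Mrc1 the r was 0.81, and within the cartridges it was 0.84, 0.78 and 0.86. Cd68 and Cybb followed (r = 0.76, rho = 0.77, adjusted permutation p = 0.00014 for each), with r = 0.71 without the 2 farthest tumours and 0.65, 0.89 and 0.82 within cartridges.

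Clec7a followed Cybb (r = 0.67, rho = 0.65, adjusted permutation p = 0.00014 and 0.00035), with r = 0.59 without the 2 farthest tumours and 0.62, 0.84 and 0.47 within cartridges. The receptor Csf1r followed Cd68 (r = 0.67, rho = 0.62, adjusted permutation p = 0.00014 and 0.000373) and Cybb (r = 0.63, rho = 0.63, adjusted permutation p = 0.00014 and 0.00035), with r = 0.67 and 0.53 without the 2 farthest tumours and, within cartridges, 0.63, 0.70 and 0.82 for Cd68 and 0.46, 0.83 and 0.82 for Cybb. Clec7a showed no such relation to Mrc1 (r = 0.04, rho = -0.01, adjusted permutation p = 0.807 and 0.961; within cartridges -0.11, 0.06 and 0.10). With Cd163 its r was -0.14 (rho = -0.14, adjusted permutation p = 0.455 and 0.491; within cartridges -0.16, -0.14 and -0.09), and 0.10 once arm means were removed. The ligand gene Csf1 followed its receptor gene Csf1r (r = 0.57, rho = 0.51, adjusted permutation p = 0.000805 and 0.00498; within cartridges 0.43, 0.61 and 0.73), with r = 0.43 without the 2 farthest tumours. The relation of Msr1 to Csf1 depended on those tumours that held lung or liver transcripts, with r = 0.29 over 36 tumours (rho = 0.42, adjusted permutation p = 0.105 and 0.0192; within cartridges -0.10, 0.76 and 0.70) and 0.68 over the 34 without the lung- and liver-containing tumours.

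**Figure D4:**
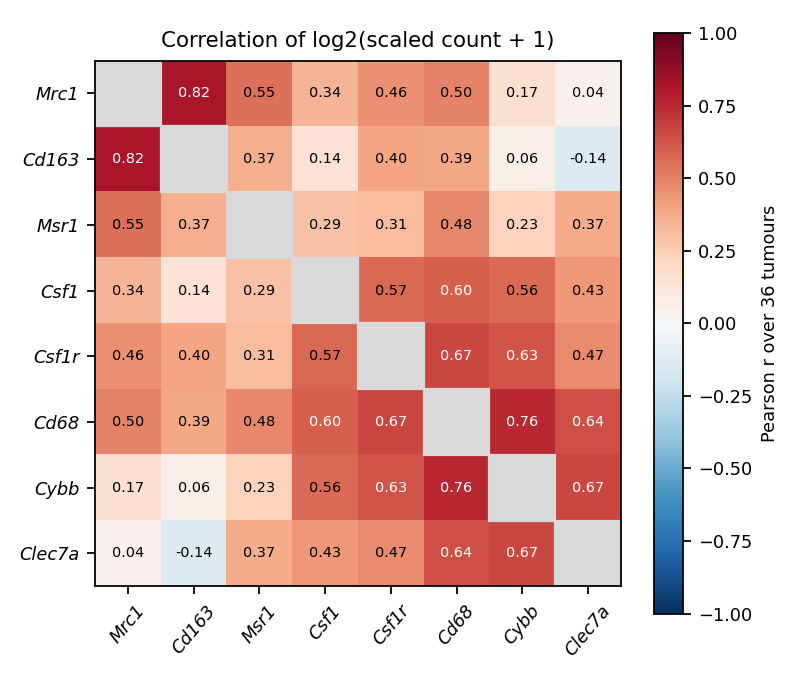
Pearson r of log2(scaled count + 1) over 36 tumours for the 28 pairs of the 8 genes, red for positive and blue for negative. Mrc1 and Cd163 (0.82) pair off at one corner and Cd68, Cybb and Clec7a (0.64 to 0.76) at the other, with values near 0 between Clec7a and Mrc1 or Cd163. Cd68 is also positive with Mrc1 (0.50) and Cd163 (0.39).

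Because Cd163 and Mrc1 followed each other so closely, their ratio within a tumour was examined, after their values were seen and without a test. The log2 ratio of Cd163 to Mrc1 averaged -3.17 ± 0.49 in tumours given gemcitabine and -2.41 ± 0.68 in those without it (SD, n = 18 each). It lay below the median without gemcitabine, -2.74, in 15 of 18 tumours given it. By arm it averaged -3.47 ± 0.47 in Gemcitabine and -2.68 ± 0.72 in Vehicle tumours, and -3.04 ± 0.28 in Gemcitabine+anti-PD1 and -1.91 ± 0.56 in Anti-PD1 tumours. It averaged -3.44 ± 0.44 in the triple combination and -2.51 ± 0.50 in TP-0903+anti-PD1 tumours. On TP-0903 the means were -2.77 ± 0.44 in TP-0903+Gemcitabine and -2.41 ± 0.85 in TP-0903 tumours, while the medians ran the other way, at -2.73 and -2.78. The highest ratio in TP-0903 tumours, -1.15, was that of the liver-containing replicate 3. The housekeeping factor cancels in this ratio, which used raw counts without background subtraction. Cd163 was not above the lane threshold in 3 tumours, all given gemcitabine. The log2 ratio of Clec7a to Cybb averaged -0.42 ± 0.38 with gemcitabine and -0.82 ± 0.45 without it, and exceeded the median without it, -0.77, in 15 of 18 tumours.

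**Figure D5:**
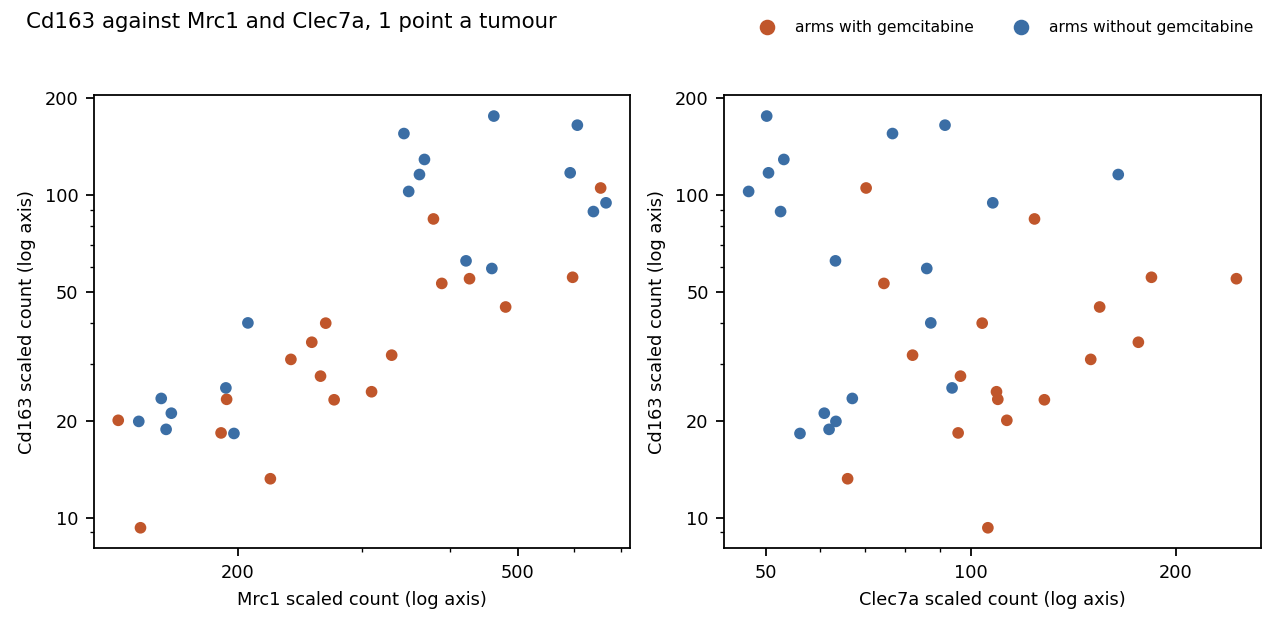
Scaled counts of Cd163 against those of Mrc1 (left) and Clec7a (right), both axes logarithmic, 1 point for each of 36 tumours, orange with gemcitabine and blue without it. Cd163 follows Mrc1 (r = 0.82) in both colours, and the right panel shows no such trend (r = -0.14), with the gemcitabine points to the lower right.

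Outside the 8 genes, the most alike tested genes across the 36 tumours differed by member. Clec7a was closest to Ly86 (r = 0.77), which encodes the partner of an innate sensor, to Clec4n (0.77), which encodes the C-type lectin dectin-2, and to Cfp (0.65). Their gemcitabine averages were 0.50, 0.74 and 0.16 on the log2 scale. These genes were picked by r with Clec7a over the same tumours, so their averages are not separate evidence. Cybb was closest to Lcp1 (0.87), an actin-bundling protein of leukocytes, and to Ncf4 (0.82), another subunit of the same oxidase. Mrc1 was closest to Ccl9 (0.78), F13a1 (0.77) and Fcgr2b (0.77). Cd163 was closest to Ccl9 (0.73), Hspb2 (0.73) and C1ra (0.70). Msr1 was closest to C1qa (0.79), Arg1 (0.79) and C1qb (0.79), and r was 0.73, 0.65 and 0.70 without the lung- and liver-containing tumours. Cd68 was closest to Fcer1g (0.83), Cfp (0.79) and Cd84 (0.77). Csf1r was closest to Emr1 (0.80), the F4/80 antigen of macrophages, and Csf1 to Cd34 (0.77) and C5ar1 (0.77).

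Wider lists around these genes were read in the same averages, and 0 genes were called in any of them in edgeR over all 36 tumours. Of 7 tested C-type lectins and pattern receptors, 6 had a positive log2 fold with gemcitabine, with a median of 0.23 against -0.03 over all genes. Clec4n (0.74 ± 0.22, adjusted p = 0.0988) and Clec4a2 (0.37 ± 0.18, adjusted p = 0.335) had an unadjusted p under 0.05. Of 15 genes on the scavenger and uptake list, not all of which encode receptors, 7 were positive, with a median of -0.15. The lipid exporter Abca1 (-0.42 ± 0.18) and the fatty acid receptor Cd36 (-1.32 ± 0.58) had an unadjusted p under 0.05. That list, without the lung- and liver-containing tumours, had 8 of 15 positive and a median of 0.04, with Cd36 at -0.14 ± 0.40 and Abca1 at -0.25 ± 0.16. Of 10 growth factor and myeloid regulator genes 5 were positive, and Cebpb, a transcription factor of myeloid cells, had -0.58 ± 0.17 (adjusted p = 0.0988), or -0.27 ± 0.09 without those tumours (adjusted p = 0.123). Of 10 genes downstream of dectin-1, 5 were positive with a median of -0.02, and the cytokine gene Tnf had 0.43 ± 0.15 (adjusted p = 0.150). With TP-0903, 12 of 15 genes on the scavenger and uptake list were positive (median 0.11 against 0.03 over all genes). The lipid carrier Apoe, which liver also makes, had 0.67 ± 0.31 (adjusted p = 0.393), or -0.05 ± 0.16 without the lung- and liver-containing tumours. The dectin-1 list had 4 of 10 positive with TP-0903 (median -0.06), with Tnf at 0.38 ± 0.15 and Rela at -0.30 ± 0.12, and 8 of 10 with anti-PD1 (median 0.04).

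With TP-0903 all 4 tested oxidase and radical genes were also positive, with a median of 0.63, from Mpo (1.64 ± 0.56) and Arg1 (0.93 ± 0.39), which degrades arginine, to Nos2 (0.33 ± 0.16) and Ncf4 (0.23 ± 0.19), and Cybb itself stood at 0.04 ± 0.15. Mpo is also a neutrophil marker and Arg1 is abundant in liver. The list's median was 0.25 without the lung- and liver-containing tumours, with Mpo at 1.61 ± 0.58 and Arg1 at 0.25 ± 0.25. With anti-PD1 the C-type lectin and pattern receptor list had 6 of 7 positive log2 folds and a median of 0.11, and the uptake list 6 of 15 and -0.01, with Itgam, an integrin of myeloid cells, at 0.63 ± 0.23 (adjusted p = 0.394). Among the other marker lists, with TP-0903, gemcitabine and anti-PD1 in turn, the median log2 fold was 0.16, 0.04 and 0.09 for 12 macrophage genes, 0.03, 0.05 and -0.29 for 5 dendritic cell genes, -0.34, 0.13 and 0.24 for 3 tumour epithelium genes, 0.11, -0.20 and 0.30 for 6 fibroblast genes and -0.16, -0.98 and -0.47 for 5 lung genes. The lung medians were 0.03, 0.10 and 0.11 without the lung- and liver-containing tumours.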

How the data were processed

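RNA of 36 tumours was measured on the mouse nCounter PanCancer Immune Profiling Panel. The authors deposited a table of raw counts. Per the series' design text, these were normalized to positive controls and housekeeping genes, but 27720 of 27720 values equal the counts in the deposited lane report, which also holds other lane attributes. In that report 7 lane identifiers carry a suffix of unstated meaning. No column was left unassigned. Groups follow the labels, which do not say whether tumours within an arm shared a cage or batch, so p-values measure only the spread between these samples.

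A gene was tested if 4 or more lanes counted it above a background threshold, the mean of the negative controls and 2 SD (683 genes tested, 67 not). Library sizes were set from the geometric mean of 20 housekeeping genes. edgeR 4.0.16 (quasi-likelihood, robust, two-sided, R 4.3.3) fitted all 36 tumours and 8 arms once, for 3 averages over 4 backgrounds, 7 arms against Vehicle, 9 additions and 3 interactions. Benjamini-Hochberg adjustment ran over 683 genes in each, at 0.05. DESeq2 1.42.0, limma 3.58.1 (pseudocount 1), other scalings, no filter, background subtraction, a cartridge block and left-out tumours were alternatives. The fit was tested on simulated data. Symbols were taken as the lane report prints them, and RefSeq matched 746 of its 770 accessions.

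The 8 genes were always named. In other comparisons, genes with an unadjusted p under 0.05, or the smallest p, were named. Up to 3 of the most alike genes by r and up to 4 per list were also named. The lists were CSF1 axis and myeloid growth factors, C-type lectins and pattern receptors, scavenger and uptake receptors, oxidase and radical genes, dectin-1 signalling, and markers of macrophages, neutrophils, dendritic cells, lung, hepatocytes, B cells, tumour epithelium and fibroblasts. The genes, lists and tests were chosen with earlier results of these data known.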

Additional observations from a re-analysis of the deposited data

Results flagged for a closer look

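In 64 groups of 4 to 6 tumours (8 genes in 8 arms), 9 values lay far from the rest of their arm by Dixon's criterion, which chance meets in about 1 in 20 groups. Anti-PD1 replicate 4 was the highest of its arm for 5 genes: Cd68 at a scaled count of 327 (the others 181 to 185), Msr1 at 197 (74.3 to 83.2), Csf1 at 192 (79.8 to 96.9), Clec7a at 165 (47.2 to 67.0) and Cybb at 212 (86.1 to 105). Mrc1 was low in Anti-PD1 replicate 2, at 156 against 349.9 to 368. In the lung-containing Vehicle replicate 3, Msr1 was low at 18.1 (the others 64.2 to 90.7) and Clec7a high at 87.4 (50.2 to 62.0). Clec7a was also high in Gemcitabine replicate 2, at 176 against 95.8 to 109.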

How the results depend on the processing

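All alternatives were planned with earlier results known. No paired analysis was possible because replicate numbers follow accession order and the labels carry none. Of the 24 average tests, 0 were called, and 1 with positive-control scaling, 1 with TMM, 2 with DESeq2's size factors, 2 with DESeq2, 1 without the lung- and liver-containing tumours, and 0 to 2 with 1 tumour left out. Against Vehicle DESeq2 called 1 of 56. Positive-control scaling called Cd163 with gemcitabine (-1.37, adjusted p = 0.0146) and not Clec7a (0.52, adjusted p = 0.145), and put the median over all genes at -0.20 (TP-0903) and -0.18 (gemcitabine) instead of 0.03 and -0.03. Under it the signs turned for Cd68 (-0.068), Csf1r (-0.18) and Cybb (-0.19) with TP-0903, for Cd68 (-0.011), Msr1 (-0.11) and Csf1r (-0.083) with gemcitabine, and for Clec7a with gemcitabine added to TP-0903 (-0.063). Cybb with TP-0903 turned to -0.011 with DESeq2's size factors. Clec7a with TP-0903 turned to 0.083 with the cartridge block, 0.020 without the lung- and liver-containing tumours and 0.13 with both changes. With anti-PD1, Cd163 turned to -0.023 with the block, and Csf1r to 0.035 with the block and without those tumours. With 1 tumour left out, averages near 0 also turned: with TP-0903 Csf1r (-0.020 to 0.18), Clec7a (-0.12 to 0.12) and Cybb (-0.030 to 0.14); with gemcitabine Msr1 (-0.035 to 0.17) and Csf1r (-0.078 to 0.15); with anti-PD1 Mrc1 (-0.10 to 0.14), Cd163 (-0.028 to 0.26), Csf1r (-0.19 to 0.0071) and Clec7a (-0.11 to 0.13). The cause of these turns was not tested. Over all alternatives the gemcitabine average of Clec7a ran from 0.52 to 0.95 and that of Cd163 from -1.65 to -0.97. Over all 683 genes the gemcitabine average called 1 gene, 19 with positive-control scaling, 3 with TMM, 7 with DESeq2's size factors, 19 with DESeq2, 4 with background subtracted, 17 without the lung- and liver-containing tumours, and 0 with limma or the block. Counts near the lane threshold limit Cd163.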
